A study of Macaca mulatta with 14 samples.

Results

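The 9 genes described here encode enzymes that make serine and glycine and move single carbon units onto folate: PHGDH, PSAT1, PSPH, SHMT1, SHMT2, MTHFD1, MTHFD2, TYMS and GLDC. They were taken by name from a table of gene expression levels in 14 RNA-seq libraries of rhesus monkey (Macaca mulatta) cells. Of the 9 genes, 8 were found by their symbol. PSPH is not in the table under its symbol and was taken as the locus LOC715302, which RefSeq lists under the same gene ID as PSPH. The table lists 33737 loci, of which 33688 could be used and 15024 reached 1 FPKM (mapped fragments scaled by transcript length and library depth) in at least 2 libraries. All 9 genes passed that minimum.

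Cells can build serine from a glycolytic intermediate in a short chain of reactions run by PHGDH, PSAT1 and PSPH. The SHMT enzymes then split serine into glycine and a carbon unit carried by tetrahydrofolate, SHMT1 mainly in the cytosol and SHMT2 in mitochondria, and the MTHFD enzymes convert the carried unit between its oxidation states for purine and formate production. TYMS spends such a unit on making thymidylate for DNA, and GLDC breaks glycine down in mitochondria and recovers a further unit. These genes are best known from proliferating cells, and GLDC also from the neural tube, where loss of the enzyme in mice impairs its closure.

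The study followed the conversion of fetal fibroblasts to neuroepithelial stem cells (NESCs), and 7 cell lines were sequenced in 2 libraries each. The NESC lines are CHIR-P6 and CHIR-P23, colonies kept to passages 6 and 23, and C8-P7 and A9-P7, each grown from a single cell of the passage 23 culture and so each 1 clone. They were grown in a Neurobasal medium with 3 µM CHIR99021 (an inhibitor of GSK3), 5 µM SB431542 (an inhibitor of TGF-beta receptors), hLIF at 1000 U/ml and bFGF at 10 ng/ml. CHIR99021 is in this medium according to the labels, while the methods of the study do not list it. The earlier lines are RF-P3, RF-iN-d5 and RF-iN-d11. RF-P3 are untreated ear skin fibroblasts of 2 male fetuses at embryonic day 65, with the fetuses not told apart in the libraries, grown in high glucose DMEM with serum. RF-iN-d5 and RF-iN-d11 are cells at days 5 and 11 of induction in the same kind of Neurobasal medium without hLIF, with 5 µM Y27632 (an inhibitor of ROCK) until day 5 and 1 mM valproic acid, a histone deacetylase inhibitor, until day 7. The labels give this concentration of valproic acid, while the methods of the study give one in µM. All lines except RF-P3 had received retroviruses for OCT4, SOX2 and KLF4. The Neurobasal media also carried a non-essential amino acid supplement, which contains serine and glycine. The total serine and glycine of each medium, that of the fibroblasts included, is not given in the sources used here. The media differ in base, serum and added factors as well, so medium and stage cannot be told apart in any comparison that crosses these media.

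Some properties of the table bear on the values. In a stretch of 28445 loci the values stand 1 row away from the gene they belong to, and they were moved back by 1 row. In that stretch 64 of 71 ribosomal protein genes were above 100 FPKM after the move, against 2 of 71 as labelled, and 8 of 8 outside it either way. The 2 libraries of a line differed by less than counting noise, with a variance of 0.141 to 0.174 of the value that counting alone would give, so their average was used as 1 sample. Among the 9 genes the libraries of a pair differed by a median of 0.696% and by at most 5.90% (SHMT1 in RF-P3). The 4 NESC lines descend from 1 conversion, and C8-P7 and A9-P7 from CHIR-P23, so the p-values below measure the spread between stages of that conversion and not between independent conversions. Markers of the labelled cell types were judged by the rule for a call given below. Here 10 of 10 fibroblast markers, such as COL1A1, were called lower in the NESC lines, beside 13.2% of all loci tested. Their summed level was 24.7 to 89.6 FPKM, against 4147 to 7254 FPKM in the earlier lines. Of the neuroepithelial markers, 9 of 10, such as NES, were called higher, beside 7.57% of all loci. Their summed level was 892 to 1400 FPKM, against 60.9 to 404 FPKM. SOX2 was not called, and SOX3 and FABP7 were called although their groups overlapped. In CHIR-P6 the neuroepithelial markers SOX1 (0.27 FPKM), SOX3 (0.05 FPKM) and PAX6 (2.25 FPKM) were low, and FABP7, NES and SOX2 made up most of its sum. SOX2 was also delivered by retrovirus to all lines except RF-P3, and RNA from the delivered and the endogenous gene was not told apart.

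The central comparison asks how the 4 NESC lines differ from the 3 earlier lines. Of the 9 genes, GLDC and SHMT1 rose in the NESC lines by the rule used throughout for a call, an adjusted p under 0.05 (limma, Benjamini-Hochberg over 15024 loci) with at least a 2-fold change of FPKM + 1, and 0 of 9 fell. Over all loci tested, 7.57% were called higher and 13.2% lower. With no minimum on the fold, 5 of 9 genes were higher at adjusted p under 0.05, namely PSPH, SHMT1, SHMT2, TYMS and GLDC, and 0 of 9 were lower, against 16.8% of all loci higher and 20.6% lower. In the same 5 genes every NESC line was above every earlier line, which held for 21.1% of all loci. The median log2 fold change of the 9 genes was 0.87, beside -0.02 over all loci tested. The count of 2 became 1 without CHIR-P23 and 3 without RF-P3, RF-iN-d5, CHIR-P6 or A9-P7. After quantile normalization PHGDH, PSPH, SHMT2 and TYMS were called as well (log2 fold change 1.01 to 1.16), with the median of all loci then at 0.14 and 47.7% of all calls in the higher direction, beside 36.4% for the values as deposited.

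**Figure D1:**
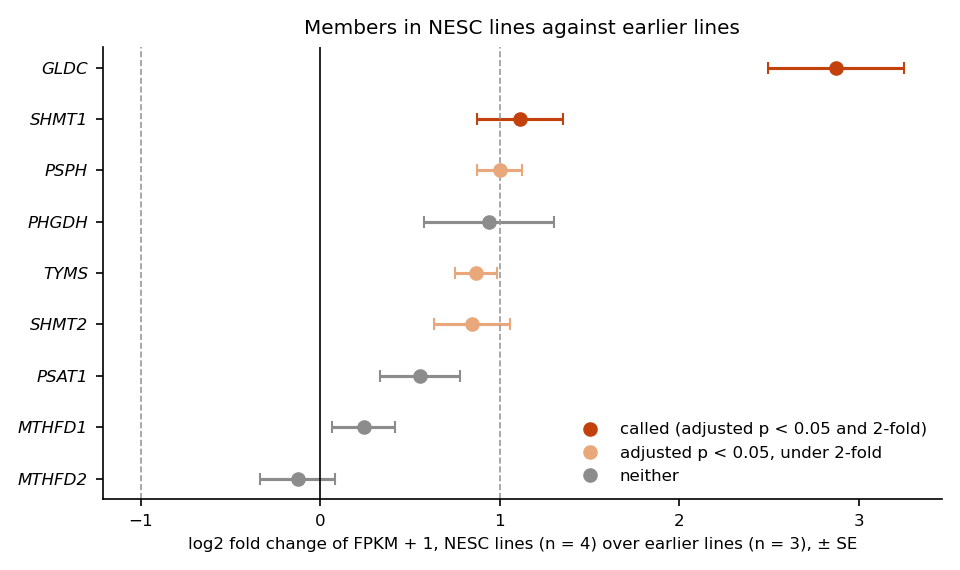
Log2 fold change of FPKM + 1 between the averages of the NESC lines (n = 4) and the earlier lines (n = 3) for the 9 genes, with the standard error from limma as bars and dashed lines at a 2-fold change. GLDC stands apart at 2.87, 5 genes lie between 0.85 and 1.11, and MTHFD2 is on the other side of 0 at -0.13.

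PHGDH oxidises the glycolytic intermediate and so commits it to serine. In the order of the conversion, its libraries, 2 for each line, had 174 and 173 FPKM in the fibroblasts, 96.9 and 97.6 on day 5, 57.8 and 59.5 on day 11, 131 and 132 at passage 6, 199 and 201 at passage 23, 228.8 and 229.8 in clone C8-P7, and 226 and 226 in clone A9-P7. The fibroblasts thus had more PHGDH RNA than the passage 6 NESCs, day 11 had the least, and the groups overlapped through RF-P3. PHGDH averaged 197 ± 45.4 FPKM in the NESC lines and 110 ± 58.4 FPKM in the earlier lines (n = 4 and 3, SD), a log2 fold change of 0.94 ± 0.36 (SE) with adjusted p = 0.0741. The value depended on single lines: without RF-P3 it was 1.34 with adjusted p = 0.0125, which is a call, and without RF-iN-d11 it was 0.56 with adjusted p = 0.205. Quantile normalization gave 1.09 and adjusted p = 0.0237, and rescaling the libraries to equal totals gave 1.07 and adjusted p = 0.0394, also calls.

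PSAT1 transfers an amino group to the product of PHGDH. It had 91.4 and 90.5 FPKM in the fibroblasts, 122 and 122 on day 5, 103 and 102 on day 11, 114 and 114 at passage 6, 168 and 167 at passage 23, 136 and 138 in clone C8-P7, and 216 and 217 in clone A9-P7. Clone A9-P7 was the highest and the fibroblasts the lowest, and CHIR-P6 lay below RF-iN-d5, so the groups overlapped. The means were 159 ± 44.3 FPKM in the NESC lines and 105 ± 15.7 FPKM in the earlier lines (n = 4 and 3, SD), and the log2 fold change of 0.56 ± 0.22 (SE) did not pass, with adjusted p = 0.0833.

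PSPH removes the phosphate and releases serine. It had 48.1 and 46.7 FPKM in the fibroblasts, 53.0 and 55.5 on day 5, 50.4 and 50.8 on day 11, 89.5 and 91.5 at passage 6, 106 and 108 at passage 23, 117 and 119.9 in clone C8-P7, and 94.5 and 95.9 in clone A9-P7. The 3 earlier lines were close to each other and every NESC line was well above them. The means were 103 ± 12.5 FPKM in the NESC lines and 50.8 ± 3.43 FPKM in the earlier lines (n = 4 and 3, SD), a log2 fold change of 1.00 ± 0.13 (SE) with adjusted p = 0.00128, which is just under the 2-fold limit at 1.998-fold of FPKM + 1. It crossed the limit and was called without RF-iN-d5 (1.05), without CHIR-P6 (1.06) and without A9-P7 (1.03), and also with libraries rescaled to equal totals (1.12).

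The chain was therefore not uniform along the conversion. The summed level of PHGDH, PSAT1 and PSPH was 312 FPKM in the fibroblasts, 274 on day 5, 212 on day 11, 336 at passage 6, 475 at passage 23, 484.5 in clone C8-P7 and 537.5 in clone A9-P7. Per length, PHGDH stood to PSAT1 at 1.91 in the fibroblasts, at 0.797 on day 5 and at 0.571 on day 11, and at 1.15, 1.19, 1.68 and 1.04 in the NESC lines in the same order. PHGDH RNA was thus above that of PSAT1 in the fibroblasts and all 4 NESC lines, and below it during induction.

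**Figure D2:**
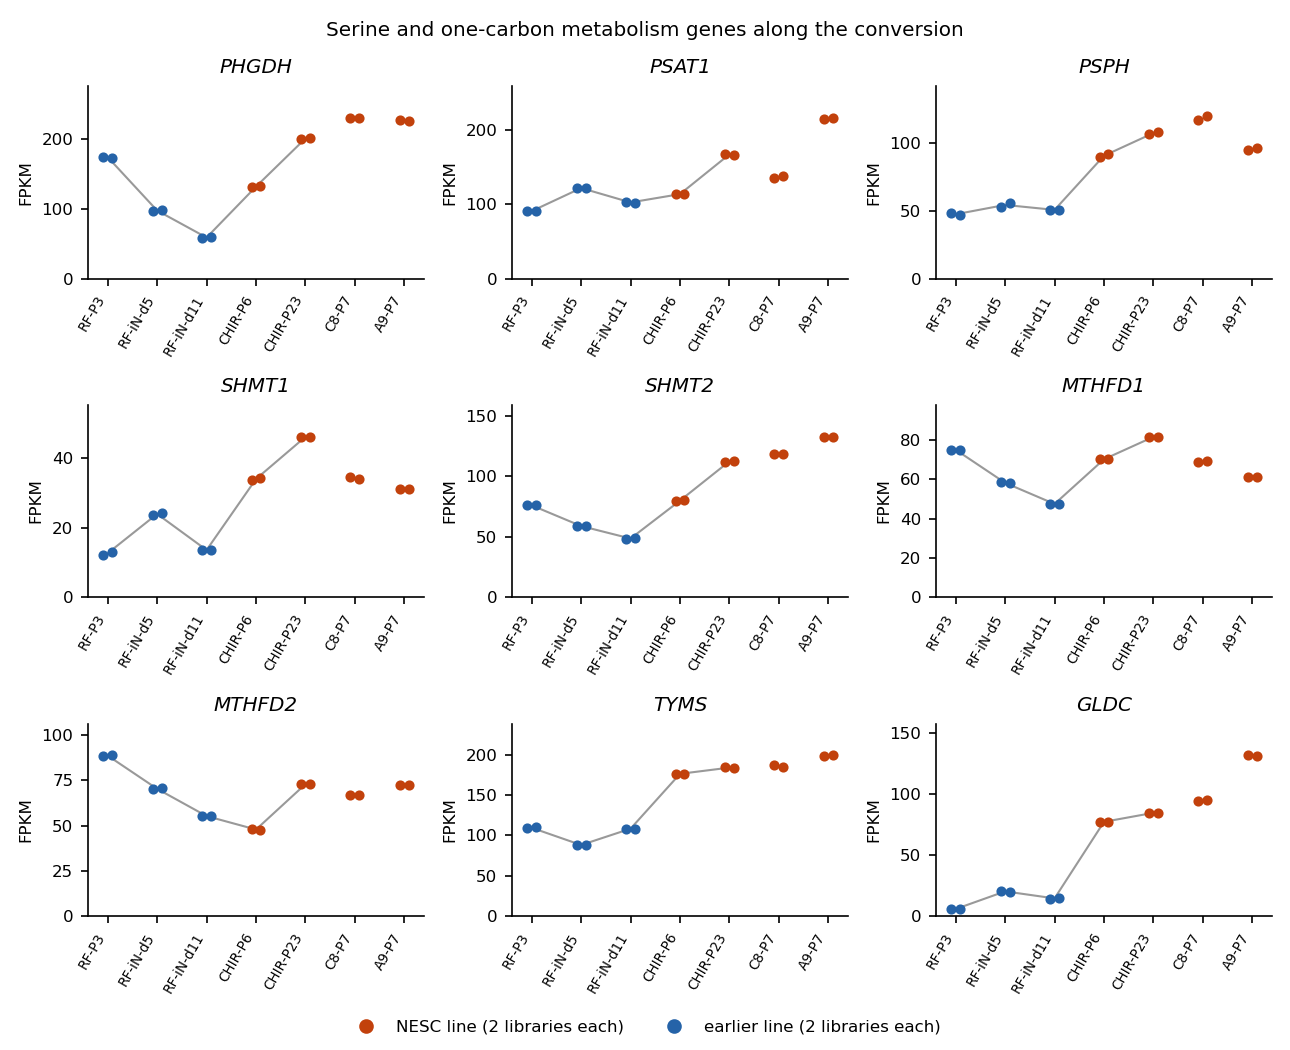
FPKM of the 9 genes in each library (points, 2 per line), with lines ordered along the conversion on the horizontal axis, NESC lines in red and earlier lines in blue. Grey lines join the averages of the 5 lines that follow each other in culture, while clones C8-P7 and A9-P7 both come from CHIR-P23. GLDC is at 77.2 to 132 FPKM in the NESC lines and at 5.80 to 20.5 FPKM in the earlier lines, and PHGDH dips to 57.8 FPKM at day 11.

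SHMT1, the mainly cytosolic serine hydroxymethyltransferase, was the lower of the 2 SHMT genes in every line. Its libraries had 12.3 and 13.0 FPKM in the fibroblasts, 23.6 and 24.3 on day 5, 13.6 and 13.6 on day 11, 33.7 and 34.2 at passage 6, 46.1 and 46.1 at passage 23, 34.4 and 34.0 in clone C8-P7, and 31.1 and 31.1 in clone A9-P7. The groups did not overlap, day 5 was the highest of the earlier lines, and CHIR-P6 and C8-P7 were nearly equal, with libraries that overlapped. SHMT1 rose to a mean of 36.3 ± 6.64 FPKM in the NESC lines, against 16.7 ± 6.27 FPKM in the earlier lines (n = 4 and 3, SD), with a log2 fold change of 1.11 ± 0.24 (SE) and adjusted p = 0.0103. The change was near the 2-fold limit and came to 0.95 (adjusted p = 0.0238) without RF-P3 and just under 1.00 (adjusted p = 0.0305) without CHIR-P23, so that the call was lost in both cases. It was also lost with 5 in place of 1 added to FPKM (0.95, adjusted p = 0.0111). Without RF-iN-d11 the call was kept only narrowly, at 1.001 (adjusted p = 0.0366).

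SHMT2, its mitochondrial counterpart, had 75.9 and 76.0 FPKM in the fibroblasts, 59.2 and 58.6 on day 5, 48.4 and 48.8 on day 11, 79.5 and 80.3 at passage 6, 112 and 112 at passage 23, 119 and 118 in clone C8-P7, and 133 and 132 in clone A9-P7. Day 11 was again the lowest, and CHIR-P6 was only slightly above the fibroblasts. SHMT2 averaged 111 ± 22.3 FPKM in the NESC lines and 61.2 ± 13.8 FPKM in the earlier lines (n = 4 and 3, SD), a log2 fold change of 0.85 ± 0.21 (SE) with adjusted p = 0.0180, under the 2-fold limit. It passed the limit without RF-P3 (1.01), and its adjusted p came to between 0.0520 and 0.0581 without RF-iN-d5, RF-iN-d11, C8-P7 or A9-P7.

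The ratio of SHMT2 to SHMT1 was 6.01 in the fibroblasts, 2.46 on day 5, 3.58 on day 11, 2.35 at passage 6, 2.44 at passage 23, 3.47 in clone C8-P7 and 4.26 in clone A9-P7, per length. It averaged 3.13 ± 0.909 in the NESC lines and 4.02 ± 1.81 in the earlier lines (n = 4 and 3, SD), a difference within the spread of the lines. The mitochondrial form was therefore the more abundant RNA at every stage, and most so in the fibroblasts.

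MTHFD1, a cytosolic enzyme that joins formate to folate and interconverts the carried units, spanned the narrowest range of the 9 genes, with the highest line at 1.72 times the lowest. It had 75.1 and 74.9 FPKM in the fibroblasts, 58.5 and 57.9 on day 5, 47.6 and 47.3 on day 11, 70.2 and 70.2 at passage 6, 81.6 and 81.5 at passage 23, 68.8 and 69.3 in clone C8-P7, and 61.1 and 61.4 in clone A9-P7. The fibroblasts were above 3 of the 4 NESC lines, and the groups overlapped. With 70.5 ± 8.38 FPKM in the NESC lines and 60.2 ± 13.9 FPKM in the earlier lines (n = 4 and 3, SD), the log2 fold change of 0.24 ± 0.17 (SE) did not pass (adjusted p = 0.300).

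MTHFD2, the mitochondrial dehydrogenase and cyclohydrolase, was the single gene of the 9 whose mean was lower in the NESC lines. It had 88.5 and 88.8 FPKM in the fibroblasts, 70.1 and 70.5 on day 5, 55.2 and 55.2 on day 11, 48.2 and 47.4 at passage 6, 72.9 and 72.8 at passage 23, 67.0 and 66.8 in clone C8-P7, and 72.4 and 72.6 in clone A9-P7. Its highest level was in the fibroblasts and its lowest in CHIR-P6, with the later NESC lines near the level of day 5. The means were 65.0 ± 11.8 FPKM in the NESC lines and 71.4 ± 16.7 FPKM in the earlier lines (n = 4 and 3, SD), and the log2 fold change was -0.13 ± 0.21 (SE) with adjusted p = 0.649. The sign turned without RF-P3 (0.04), without CHIR-P6 (0.01) and after quantile normalization (0.05), so no direction can be given for it. The ratio of MTHFD2 to MTHFD1 was 1.18 in the fibroblasts, 1.21 on day 5 and 1.16 on day 11, then 0.681 at passage 6, 0.893 at passage 23, 0.969 in clone C8-P7 and 1.18 in clone A9-P7. It averaged 0.932 ± 0.208 in the NESC lines and 1.18 ± 0.0222 in the earlier lines (n = 4 and 3, SD), and A9-P7 lay within the range of the earlier lines.

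TYMS, thymidylate synthase, had 109 and 110.0 FPKM in the fibroblasts, 87.9 and 88.4 on day 5, 108.5 and 108.3 on day 11, 176.5 and 176.4 at passage 6, 185 and 183 at passage 23, 187 and 185 in clone C8-P7, and 198 and 199.9 in clone A9-P7. The 4 NESC lines were the most alike of those for any of the 9 genes in proportion to their level, and all lay above the earlier lines, while the libraries of CHIR-P23 and C8-P7 overlapped. The means were 186 ± 9.39 FPKM in the NESC lines and 102 ± 12.03 FPKM in the earlier lines (n = 4 and 3, SD), a log2 fold change of 0.87 ± 0.12 (SE) with adjusted p = 0.00159, which is under the 2-fold limit. TYMS kept an adjusted p of 0.00847 or less without any single line.

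GLDC, the decarboxylase of the glycine cleavage system, showed the largest change of the 9 genes. It had 5.80 and 5.84 FPKM in the fibroblasts, 20.5 and 20.1 on day 5, 14.2 and 14.8 on day 11, 77.2 and 77.5 at passage 6, 84.7 and 84.7 at passage 23, 94.8 and 95.2 in clone C8-P7, and 132 and 132 in clone A9-P7. The level was lowest in the fibroblasts and higher in each NESC line than in any earlier line, with clone A9-P7 highest at 22.6 times the level of the fibroblasts. GLDC rose to 97.2 ± 24.1 FPKM in the NESC lines, against 13.5 ± 7.29 FPKM in the earlier lines (n = 4 and 3, SD), with a log2 fold change of 2.87 ± 0.38 (SE) and adjusted p = 0.00147. It was called under all 16 alternatives tried, with log2 fold changes between 2.40 and 3.22. Set against SHMT2, which makes glycine in the same compartment, GLDC RNA stood at 0.879 ± 0.119 in the NESC lines and at 0.240 ± 0.143 in the earlier lines (SD of the ratio per length, n = 4 and 3), and the groups did not overlap.

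**Figure D3:**
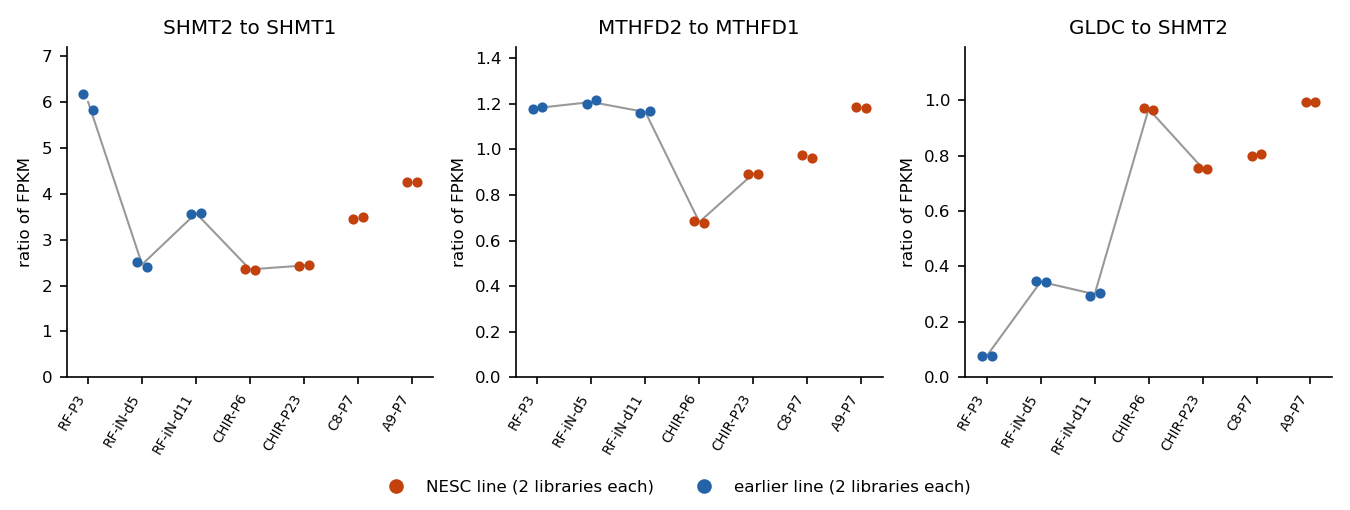
Ratios of FPKM in each library (points, 2 per line) for SHMT2 to SHMT1, MTHFD2 to MTHFD1 and GLDC to SHMT2, with NESC lines in red, earlier lines in blue and grey lines joining the averages of the 5 lines that follow each other in culture. SHMT2 to SHMT1 is highest in RF-P3 at 6.01, MTHFD2 to MTHFD1 lowest in CHIR-P6 at 0.681, and GLDC to SHMT2 goes up to 0.993 in A9-P7.

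The steps of the conversion were then compared line by line. Each line counts as 1 sample, so these differences have no replicate check and no test, and a change is named where it reached 2-fold of FPKM + 1 with libraries that did not overlap. Because the libraries of a line differed by less than counting noise, a lack of overlap adds no measure of spread. On day 5, against the fibroblasts, 1 of 9 genes was at least 2-fold higher, GLDC with a log2 difference of 1.64, beside 9.37% of all loci higher and 8.42% lower. SHMT1 was also above its fibroblast level (0.87), and PHGDH below it (-0.83). On day 11, against day 5, 0 of 9 genes reached 2-fold, beside 2.85% of loci higher and 2.52% lower. By sign alone, 8 of 9 were lower, from -0.78 for SHMT1 and -0.72 for PHGDH to -0.10 for PSPH. The median log2 difference was -0.29 for the 9 genes, beside -0.01 over all loci tested, and the share of all loci lower by any amount was not counted. TYMS was the exception at 0.29.

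Most of the 2-fold differences between successive cultures were at the step into passaged NESCs. In CHIR-P6, against RF-iN-d11, 3 of 9 genes were at least 2-fold higher, GLDC (2.33), SHMT1 (1.26) and PHGDH (1.15), beside 8.48% of loci higher and 13.1% lower. PSPH (0.83), SHMT2 (0.71), TYMS (0.70), MTHFD1 (0.55) and PSAT1 (0.15) were above their day 11 level as well, and MTHFD2 was below it (-0.20). In CHIR-P23, against CHIR-P6, 0 of 9 genes reached 2-fold, beside 1.39% of loci higher and 4.27% lower. All 9 were nevertheless higher at passage 23, with a median log2 difference of 0.43, beside -0.01 over all loci tested, and with 0.60 for both PHGDH and MTHFD2.

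The clones stayed within 2-fold of their parent culture for each of the 9 genes. Few of all loci reached 2-fold in these comparisons, so this is near the shares over all loci given below. In C8-P7, against CHIR-P23, 4 genes were higher and 4 lower, and the libraries of the lines overlapped for TYMS. The largest differences were -0.42 for SHMT1 and -0.29 for PSAT1, beside 1.04% of all loci at least 2-fold higher and 2.39% lower. In A9-P7, against CHIR-P23, GLDC was 0.63 higher and SHMT1 0.55 lower on the log2 scale (1.57% of loci higher and 2.59% lower). Between the clones, A9-P7 had more PSAT1 (0.66) and GLDC (0.47) than C8-P7 and less PSPH (-0.31), beside 1.33% of loci higher and 1.19% lower.

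**Figure D4:**
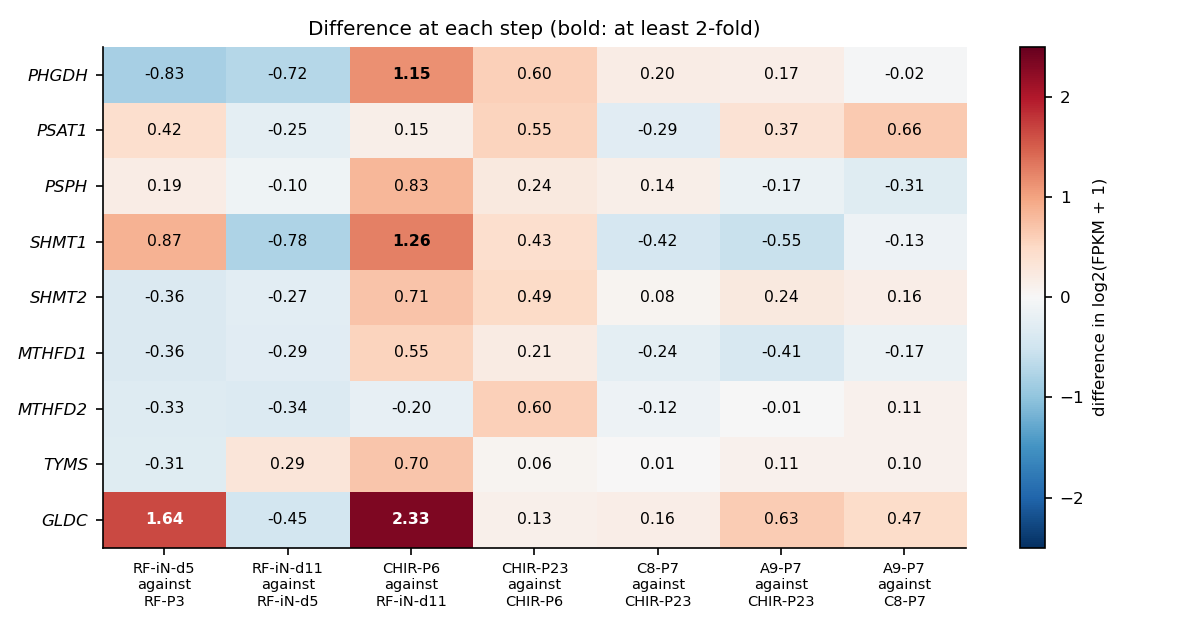
Difference in log2(FPKM + 1) for the 9 genes (rows) at each of the 7 comparisons of lines (columns), red for higher and blue for lower in the first-named line, with values of at least 2-fold in bold. The bold cells are GLDC at 1.64 on day 5 and GLDC, SHMT1 and PHGDH at 2.33, 1.26 and 1.15 in CHIR-P6.

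Since several of these genes were lower on day 11 than in the fibroblasts, the NESCs were also set against the fibroblasts directly, a comparison added after the values were seen. CHIR-P6, against RF-P3, had 2 of 9 genes at least 2-fold higher, GLDC (3.52) and SHMT1 (1.36), beside 12.6% of loci higher and 16.1% lower, and it had less PHGDH (-0.40), MTHFD2 (-0.88) and MTHFD1 (-0.09). CHIR-P23 had 3 of 9 at least 2-fold higher than RF-P3, GLDC (3.65), SHMT1 (1.79) and PSPH (1.16), beside 11.1% of loci higher and 18.1% lower. The same 3 genes passed the limit in C8-P7, GLDC (3.82), SHMT1 (1.37) and PSPH (1.30), beside 13.5% of loci higher and 19.8% lower. In A9-P7 the 3 were GLDC (4.28), PSAT1 (1.24) and SHMT1 (1.23), beside 14.2% of loci higher and 20.1% lower. PSPH was just below the limit in A9-P7 (0.99) and in CHIR-P6 (0.92). PSAT1 was below it in CHIR-P6 (0.32), CHIR-P23 (0.87) and C8-P7 (0.58). MTHFD2 was lower than in RF-P3 in each NESC line (-0.88 to -0.28), and MTHFD1 was lower in CHIR-P6 and both clones (-0.29 to -0.09) and 0.12 higher in CHIR-P23. These comparisons share RF-P3 and are not independent of each other.

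As a description over the 7 line averages, which share the order of the conversion, the 36 pairs among the 9 genes had a median Pearson correlation of 0.69 in log2(FPKM + 1). The most alike were PHGDH and SHMT2 (0.95), PSPH and GLDC (0.94), and PSPH and TYMS (0.92). MTHFD2 stood apart, with its highest correlation at 0.49 (PHGDH) and its lowest at -0.30 (GLDC). Each gene was also set against 5907 loci of at least 20 FPKM in some line. The 9 genes themselves and loci whose symbol is a LOC number were left out of these. The nearest to PHGDH were MYBL2, HAUS4 and RAD51AP1 (0.99 to 1.00 each), and the nearest to GLDC were RBMXL1, RCBTB1 and CAMKV (0.99 to 1.00). The nearest to TYMS were NAP1L1, C2CD5 and MDC1 (0.99 to 1.00), to SHMT2 SMC3, THYN1 and SAAL1 (0.99), and to PSPH CADM1, CCDC56 and CCP110 (0.99 to 1.00). SHMT1 was nearest to PINX1, WDR89 and RPS4Y2 (0.98 to 0.99). PSAT1 was nearest to PRKAB1, PRMT3 and PDE6D (0.95 to 0.98), MTHFD1 to MRPS34, ANP32B and MRPS7 (0.96 to 0.98), and MTHFD2 to ELL2, NTMT1 and IFRD1 (0.94 to 0.95).

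Markers of proliferation followed some of these genes more closely than others. The 14 markers, such as TOP2A and MCM2, summed to 1516 to 2249 FPKM in the NESC lines and to 607 to 1544 FPKM in the earlier lines. Of these, 9 of 14 were called higher, beside 7.57% of all loci. Within the earlier lines the sum was 1544 FPKM in the fibroblasts, 761 FPKM on day 5 and 607 FPKM on day 11, an order that PHGDH, SHMT2, MTHFD1 and MTHFD2 shared and the other 5 genes did not. The correlation of each gene with the mean of the markers over the 7 averages was 0.96 for PHGDH, 0.94 for SHMT2, 0.83 for TYMS, 0.81 for MTHFD1, 0.78 for PSPH, 0.63 for SHMT1, 0.62 for GLDC, 0.54 for PSAT1 and 0.32 for MTHFD2. The part of proliferation in the differences was not tested. In bulk RNA, fewer cells with a transcript and less of it per cell cannot be told apart. Neuron markers summed to 242 to 350 FPKM in the NESC lines and to 112 to 1150 FPKM in the earlier lines, highest on day 5, where STMN2 made up 705 FPKM. Of 7 tested, DCX, MAP2 and ELAVL3 were called higher and STMN2, SYT1 and GAP43 lower. Markers of glia summed to 3.02 to 27.6 FPKM in the NESC lines and 2.08 to 5.37 FPKM in the earlier lines, with OLIG1 and OLIG2 listed at 0. Among 8 pluripotency markers, LIN28B was called higher (3.38 to 50.6 FPKM in the NESC lines and 0.0272 to 1.32 FPKM in the earlier lines) and ZFP42 lower (0 to 0.0851 FPKM and 2.02 to 21.8 FPKM). The 7 markers other than LIN28B were each under 1 FPKM in every NESC line, and NANOG was listed at 0 there.

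The genes around the 9 in the same pathways were taken list by list. Among further folate enzymes and carriers, 0 of 10 tested genes rose in the NESC lines and 1 fell, with a median log2 fold change of -0.14. Over all loci tested, 7.57% were called higher and 13.2% lower, so these counts are near those shares. GGH, which trims the glutamate tail of folates, fell to 1.72 to 3.997 FPKM in the NESC lines, against 7.20 to 17.5 FPKM in the earlier lines (-1.80, adjusted p = 0.00473). The other tested genes did not pass: ALDH1L2 (-0.58), which oxidises formyl folate in mitochondria, the mitochondrial folate carrier SLC25A32 (-0.43), MTFMT (-0.33), SLC19A1 (-0.16), MTHFD1L (-0.12), FPGS (0.06), the mitochondrial serine carrier SFXN1 (0.13), MTHFS (0.26) and MTHFD2L (0.41), with adjusted p between 0.0728 and 0.808. The signs of SLC19A1, MTHFD1L, FPGS and MTHFS turned under at least 1 alternative. ALDH1L1, an astrocyte marker in the brain, was below the 1 FPKM minimum in all lines.

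The partners of GLDC in the glycine cleavage system were higher in part. Of 5 tested genes of glycine breakdown, 2 rose and 0 fell, with a median of 0.44, beside 7.57% of all loci called higher and 13.2% lower. AMT, the aminomethyltransferase, was at 4.16 to 13.8 FPKM in the NESC lines and at 1.28 to 3.61 FPKM in the earlier lines (1.33, adjusted p = 0.0320). GCSH, the lipoyl carrier protein, was at 97.5 to 145 FPKM in the NESC lines and 38.0 to 90.3 FPKM in the earlier lines (1.02, adjusted p = 0.0256). Leaving out single lines ended the AMT call in 5 of 7 cases (adjusted p 0.0515 to 0.0834, without RF-P3, RF-iN-d5, CHIR-P6, C8-P7 or A9-P7). The same ended the GCSH call in 5 of 7 (log2 fold change 0.68 without RF-P3, adjusted p 0.0567 to 0.0716 without C8-P7, A9-P7, CHIR-P23 or RF-iN-d11). DLD, the dehydrogenase that the system shares with pyruvate dehydrogenase, had a log2 fold change of -0.40 (adjusted p = 0.133), GCAT 0.44 (adjusted p = 0.146) and serine racemase, SRR, 0.10 (adjusted p = 0.718, below 0 without RF-P3).

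**Figure D5:**
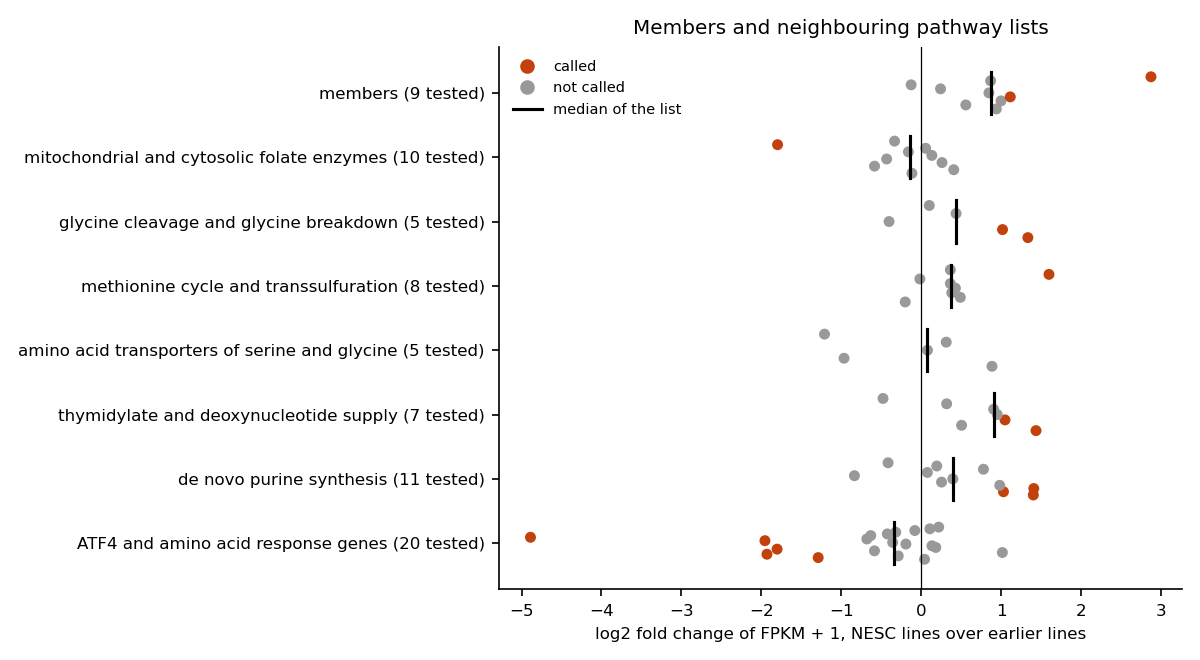
Log2 fold change of FPKM + 1, NESC lines over earlier lines, for each tested gene (points) of the 9 genes and of 7 neighbouring lists (rows), with called genes in red and the median of each list as a black bar. The medians run from -0.34 for genes of the amino acid response to 0.91 for thymidylate and deoxynucleotide supply, beside 0.87 for the 9 genes.

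Uses of the carbon units and of serine were covered by 3 further lists. Over all loci tested, 7.57% were called higher and 13.2% lower, so a single call in a short list is near those shares. In thymidylate and deoxynucleotide supply 2 of 7 genes rose and 0 fell (median 0.91), DUT (1.05, adjusted p = 0.00539), which makes the substrate of TYMS, and thymidine kinase TK1 (1.44, adjusted p = 0.0396), although the range of TK1 in the NESC lines (29.9 to 41.3 FPKM) included its level in RF-P3 (31.5 FPKM). DUT dropped under the 2-fold limit without RF-iN-d11 (0.85) and without C8-P7 (0.99), and the TK1 call was lost without any one line other than RF-P3 (adjusted p 0.0528 to 0.115). Without RF-P3 this list had 5 calls. In de novo purine synthesis, which takes formyl units from folate, 3 of 11 rose and 0 fell (median 0.40), PFAS (1.41, adjusted p = 0.000958), PPAT (1.40, adjusted p = 0.00279) and GART, a formyl transferase (1.03, adjusted p = 0.00466). With no minimum on the fold, 5 were higher at adjusted p under 0.05 and 1 lower, IMPDH1 (-0.84, adjusted p = 0.0106). By that measure 16.8% of all loci were higher and 20.6% lower. ATIC did not pass (0.40, adjusted p = 0.180). GART was under the limit, at 0.94 to 0.98, without RF-iN-d11, CHIR-P23 or C8-P7. In the methionine cycle and transsulfuration 1 of 8 rose and 0 fell (median 0.37), CBS, which joins serine to homocysteine, with 31.9 to 48.8 FPKM in the NESC lines and 11.1 to 15.9 FPKM in the earlier lines (1.60, adjusted p = 0.00101). Of 5 tested amino acid transporters that carry serine or glycine, 0 were called (median 0.08). SLC1A4 had a log2 fold change of 0.88 (adjusted p = 0.0167), SLC1A5 of -0.97 (adjusted p = 0.0485) and SLC38A2 of -1.21 (adjusted p = 0.0723), the last of these at 122 FPKM in RF-P3.

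ATF4 is the transcription factor through which amino acid shortage raises PHGDH, PSAT1, PSPH, SHMT2 and MTHFD2 in human and mouse cells, and it is controlled mainly at translation. Its own RNA was at 258 to 290.5 FPKM in the NESC lines and at 242 to 293 FPKM in the earlier lines (log2 fold change 0.04, adjusted p = 0.779). Of the 20 genes of the ATF4 and amino acid response list, 0 rose and 5 fell, with a median of -0.34, beside 7.57% of all loci called higher and 13.2% lower. Those that fell were NUPR1 (-4.89, adjusted p = 0.000934, listed at 0 in CHIR-P6), CEBPB (-1.96, adjusted p = 0.00933), DDIT3 (-1.93, adjusted p = 0.00191), TRIB3 (-1.80, adjusted p = 0.0205) and ATF5 (-1.29, adjusted p = 0.0307). With no minimum on the fold, 6 were lower and 0 higher, beside 20.6% of all loci lower and 16.8% higher. The added gene was AARS (-0.63, adjusted p = 0.0105). Its level was 54.03 to 67.03 FPKM in the NESC lines and 81.75 to 106.7 FPKM in the earlier lines. The TRIB3 call was lost without RF-P3, RF-iN-d5 or C8-P7 (adjusted p 0.0556 to 0.0766). The ATF5 call was lost without either clone, without CHIR-P23 and without RF-iN-d11 (adjusted p 0.0543 to 0.0819), and the list had 3 calls without C8-P7 and 2 without the filter on low values. Asparagine synthetase, ASNS, an enzyme of the same list, was not called (1.01, adjusted p = 0.147). It had 47.9 to 181 FPKM in the NESC lines and 27.7 to 76.7 FPKM in the earlier lines.

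Some of the 9 genes overlap other genes in the RefSeq annotation of the rhesus assembly T2T-MMU8v2.0, a later build than that of the table. Whether the counting used strand is not given in the sources used here. GLDC overlaps a pseudogene and a snoRNA gene, and MTHFD1 overlaps a pseudogene. SHMT1 overlaps SMCR8 (4.81 to 5.67 FPKM in the NESC lines, 6.23 to 7.35 FPKM in the earlier lines). SHMT2 overlaps NDUFA4L2 (0.218 to 0.447 FPKM in the NESC lines, 0.301 to 1.60 FPKM in the earlier lines). MTHFD2 overlaps BOLA3 (48.3 to 73.4 FPKM in the NESC lines, 62.2 to 81.1 FPKM in the earlier lines), so the levels of MTHFD2 and BOLA3 may be shared in part.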

How the data were processed

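Ribo-depleted, paired-end RNA-seq libraries of 7 lines were analysed. The authors aligned the reads with HISAT2 2.1.0 and deposited FPKM values made with Cufflinks 2.2.1 and Cuffnorm 2.2.1, per the submitters' processing notes, on build Mmul_8.0.1. FPKM has no read counts, so depth is known only relatively, from the smallest steps of low values: 1 for RF-P3 to 5.31 for A9-P7. The FPKM of kept loci summed to 571041 to 697718 per library. The values of data rows 1202 to 29646 were taken from the next row, and 49 rows were left out. The 2 libraries of a line were averaged. log2(FPKM + 1) of the 7 averages was fitted with limma 3.58.1 (R 4.3.3) with an intensity trend and Benjamini-Hochberg adjustment. Loci that reached 1 FPKM in 2 libraries or more were included. Fold changes on the log2(FPKM + 1) scale understate those of low genes. The code of the fit was also run on simulated lines with independent errors, so that run cannot judge p-values over related lines. All 9 genes were named, with up to 4 called genes per list by size, every other tested gene of the folate and glycine cleavage lists, and the 3 genes most like each of the 9, while other genes given were chosen after their values were seen. The genes and lists were chosen with earlier results of these data known. Alternatives were other pseudocounts, filters, scalings, no trend, no fold minimum, 14 single libraries, and leaving out each line. The correlations of replicate deviations between lines were -0.03 to 0.06, so replicate numbers do not pair the libraries. Some folate genes are not reported here, and no sequences are shown.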

Additional observations from a re-analysis of the deposited data

How the results depend on the processing

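The count of genes called higher among the 9 (2) was 1 with a pseudocount of 5, 4 after rescaling libraries to equal totals, 6 after quantile normalization and 5 without a fold minimum, and leaving out 1 line gave 1 to 3. No gene of the 9 was called lower under any alternative. Quantile normalization moved the median log2 fold change of all loci to 0.14, beside -0.02, and the calls over all loci to 1576 higher and 1725 lower, beside 1137 and 1987. Relative to that median the 9 genes changed little (PSPH 1.02 and 1.02, TYMS 0.87 and 0.88, SHMT2 0.87 and 0.86, PHGDH 0.95 and 0.96, after quantile normalization and as deposited). The count at adjusted p under 0.05 without a fold minimum was 4 to 7 (5 as reported). Calls in the pathway lists (16) were 10 without the filter on low values, where more loci are tested and AMT, GCSH, TK1, CEBPB, TRIB3 and ATF5 were among those that did not pass (adjusted p 0.0506 to 0.158), 26 without a fold minimum, and 9 (without C8-P7) to 16 when a line was left out. The count for RF-iN-d5 against RF-P3 (1) was 2 after rescaling, with SHMT1 added. Signs turned only for genes that did not pass: MTHFD2 (0.047 after quantile normalization, -0.30 to 0.041 when a line was left out), MTHFD1L (0.032 after quantile normalization, 0.0081 after rescaling, -0.26 to 0.046 when a line was left out), FPGS (-0.058 to 0.13), MTHFS (-0.18 to 0.50) and SRR (-0.073 to 0.29) when a line was left out, and SLC19A1 (0.081 after quantile normalization). The causes were not tested. With the replicate block over 14 libraries the count among the 9 was 2, and 1282 loci were called higher and 2357 lower, beside 1294 and 2368 for 14 libraries without the block, with 18 calls in the pathway lists either way. Leaving out PSPH kept the count at 2 (added after the data were seen). No symbol of the 9 was repeated, so sums over loci were not run. FPKM without counts limits what can be said of low genes, and p-values over 7 related lines say nothing of other conversions.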

Other observations

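The 4 genes of the MYC family list encode MYC transcription factors, which are known to drive growth and nucleotide synthesis, and their partner MAX. MYCN rose in the NESC lines, to 12.3 to 39.1 FPKM, against 0.868 to 1.76 FPKM in the earlier lines (limma, log2 fold change 3.47 ± 0.38 (SE), adjusted p = 0.000695), and MYCL rose to 4.83 to 11.8 FPKM in the NESC lines, against 0.400 to 0.980 FPKM in the earlier lines (2.47 ± 0.32, adjusted p = 0.0013). Both were higher in the clones and at passage 23 than at passage 6. MYC itself overlapped between the groups (66.7 to 202 FPKM in the NESC lines and 60.8 to 178 FPKM in the earlier lines, log2 fold change -0.01, adjusted p = 0.984), with its highest level in CHIR-P6. MAX was at 17.7 to 21.6 FPKM in the NESC lines and at 31.9 to 35.8 FPKM in the earlier lines (-0.76, adjusted p = 0.00372), under the 2-fold limit. MYC, MAX and their values were chosen after they were seen, and no relation between this family and the 9 genes was tested.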
